A study of Canis lupus familiaris with 15 samples.

Results

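The genes described here are the matrix metalloproteinases (MMPs) and the tissue inhibitors of metalloproteinases (TIMPs) of canine osteosarcoma cells. They were taken by symbol, as 10 named genes (MMP1, MMP2, MMP3, MMP9, MMP11, MMP13, MMP14, TIMP1, TIMP2 and TIMP3) plus any other MMP or TIMP symbol in the tables. Of the 10 names, 7 had a row in at least 1 table and 3 (MMP1, MMP9 and MMP11) had none. MMP19, MMP25 and MMP28 were the 3 further symbols found. The result was 10 genes, 7 MMPs and 3 TIMPs, among 7698 gene identifiers in all.

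RNA-Seq was performed on 15 libraries, 3 in each of 5 groups. The groups were extravasation-positive and parental cells of the D17 line, extravasation-positive and parental cells of the HMPOS line, and parental cells of the POS line, of which HMPOS is a sub-line. Extravasation-positive cells, called extravasated below, are sub-lines grown in culture from tumor cell clusters that had left the vessels of Tg(fli1a:EGFP) zebrafish, whereas the parental D17 and HMPOS cells never entered a fish. Passage through the fish, outgrowth from few cells and extravasation itself therefore cannot be told apart.

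Each of the 3 comparisons has a table with 1 value for each group in FPKM (fragments per kilobase of transcript, scaled by the number of mapped fragments), which corrects for transcript length and so also allows levels of different genes to be set side by side. A group value pools 3 libraries. The spread between libraries and the depth are unknown, so no SD or interval can be given, no difference was tested here, and "higher" and "lower" describe group values alone. A table lists only genes that the authors' test had marked as significant, so a gene without a row has no known level in that comparison. The tables name their groups meta and norm. Norm was read as parental, because POS has only parental libraries and carries that name, and "extravasated" below stands for the groups named meta. The sample records do not use these names, and the sources on the series do not all fit this reading. The article reports more genes down than up in extravasated cells of both lines, and versican (VCAN) as upregulated in both. In the groups named meta, more listed genes were higher than lower in both lines, and VCAN was lower. The reading is therefore in doubt. The same conflict would arise with the names as read here, if the article's ratios had been taken as parental over extravasated cells. Which of these applies was not tested. Under the opposite reading every direction of extravasated against parental cells would be reversed. Both groups in the comparison of HMPOS with POS are named norm, so the HMPOS group there would then be the extravasated one. The POS group would be too, although POS has only parental libraries, so the opposite reading cannot hold for every group.

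MMPs are zinc-dependent proteases that cut collagens and other matrix proteins outside the cell. Most are secreted or displayed as inactive proenzymes whose propeptide has to be cleaved. TIMPs bind the active site of MMPs and block it, and TIMP2 has a further role, since it links the proenzyme of MMP2 to MMP14 at the cell surface, where MMP2 is activated. In bone, MMP13 and MMP14 are the collagenases of osteoblast-lineage cells, and MMPs are studied in osteosarcoma for their part in invasion.

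The submitters' processing notes name the dog genome build CanFam3.1, and positions are given as they stand in the tables. MMP13 (ENSCAFG00000015043, chr5:28853641-28864897) and MMP3 (ENSCAFG00000015063, chr5:28949630-28957915) lie near each other on chromosome 5. In the RefSeq annotation of the dog assembly UU_Cfam_GSD_1.0 they belong to a run of 8 neighbouring MMP genes, in the order MMP13, MMP12, MMP3, MMP1, MMP8, MMP27, MMP20 and MMP7, and the other 6 had no row in any table. MMP2 (ENSCAFG00000009421) is at chr2:60470870-60494082, MMP14 (ENSCAFG00000011197) at chr8:3183392-3194827, MMP19 (ENSCAFG00000000074) at chr10:215772-227718, MMP25 (ENSCAFG00000019309) at chr6:38130091-38139965 and MMP28 (ENSCAFG00000018182) at chr9:37884657-37907127.

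TIMP1 (ENSCAFG00000015155, chrX:41181637-41241624), TIMP2 (ENSCAFG00000005528, chr9:2521386-2534115) and TIMP3 (ENSCAFG00000029189, chr10:30480473-30681879) are on separate chromosomes. RefSeq places TIMP1 inside SYN1, TIMP3 inside SYN3 and MMP14 inside SLC7A7. The intervals in the tables span 59987 bases for TIMP1 and 201406 bases for TIMP3. Neither SYN1, SYN3 nor SLC7A7 had a row of its own in any of the 3 tables. The sample records describe a library kit that keeps strand, but the sources used here do not say whether strand was used in counting. Fragments of these overlapping genes may thus be shared between them.

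As the group names were read, all listed MMP and TIMP genes were higher in extravasated than in parental cells, 9 in D17 and 5 in HMPOS. Under the opposite reading these genes would all be lower in extravasated cells. All 7 listed for HMPOS against POS were lower in HMPOS. Levels covered a wide range. The lowest was MMP2 in parental D17 cells at 0.372 FPKM and the highest was MMP13 in parental POS cells at 1286 FPKM.

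**Figure D1:**
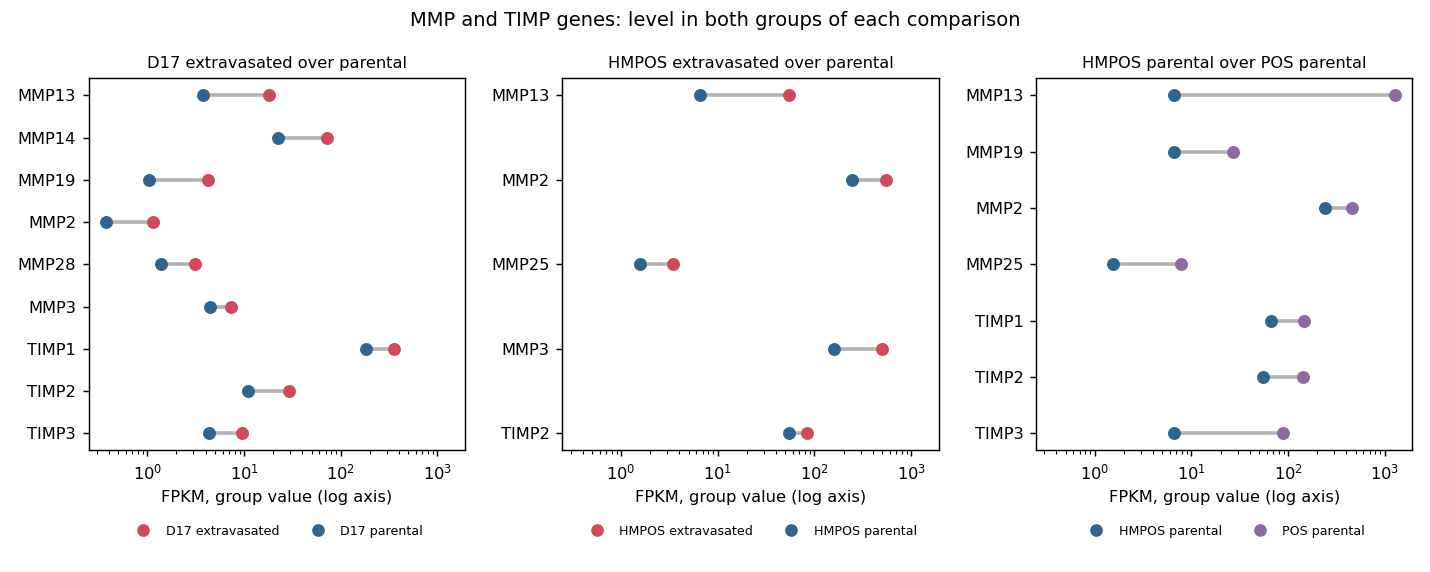
Group FPKM (log axis) of each listed MMP and TIMP gene, 1 panel per comparison, with a point for each of the 2 groups and a grey line joining them. Every extravasated value lies to the right of its parental value, and every POS value lies to the right of its HMPOS value, with the widest gap for MMP13 between 6.54 and 1286 FPKM.

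MMP13, collagenase 3, cuts fibrillar collagen, and was 1 of 3 genes with a row in every table. In D17 it was at 18.1 FPKM in extravasated against 3.80 in parental cells, a 4.76-fold higher level (log2 ratio 2.25). In HMPOS it was at 54.1 FPKM in extravasated against 6.55 in parental cells, 8.27-fold higher (log2 ratio 3.05). As the group names were read, the parental levels of both lines were thus within 2-fold of each other, although tables of different lines were normalized separately. Under the opposite reading they would be 18.1 FPKM in D17 and 54.1 FPKM in HMPOS, which are not within 2-fold. Among all listed genes, MMP13 had the 8th highest ratio of 1186 in HMPOS and the 161st highest of 4404 in D17, which under the opposite reading of the group names would be the 8th and 161st lowest.

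POS cells stood apart for this gene. MMP13 was at 1286 FPKM in parental POS and 6.54 FPKM in parental HMPOS cells, a 197-fold lower level in HMPOS (log2 ratio -7.62). Only 8 of the 5718 genes compared had a lower ratio of HMPOS over POS. By level, MMP13 ranked 32nd among the listed genes in POS and 4014th in HMPOS.

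MMP3, stromelysin 1, degrades proteoglycans, fibronectin and laminin and can cleave the propeptides of other MMPs. In HMPOS it was at 505 FPKM in extravasated against 158 in parental cells, 3.20-fold higher (log2 ratio 1.68). In D17 it was at 7.39 FPKM in extravasated against 4.49 in parental cells, 1.64-fold higher (log2 ratio 0.72). MMP3 was hence an abundant transcript in HMPOS, where it ranked 8th among the listed genes of extravasated and 32nd among those of parental cells (ranks that would change places under the opposite reading), and a minor one in D17. The table for HMPOS against POS has no row for MMP3.

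MMP2, gelatinase A, cuts denatured collagen and type IV collagen of basement membranes. In HMPOS it was at 556 FPKM in extravasated against 243 in parental cells, 2.29-fold higher (log2 ratio 1.19). In D17 it was at 1.15 FPKM in extravasated against 0.372 in parental cells, 3.09-fold higher (log2 ratio 1.63). The relative difference was similar in size in both lines, but the gene was abundant in HMPOS and close to 1 FPKM or below in D17. With a pseudocount of 1 FPKM added to both groups, the D17 difference shrank to 1.57-fold. In the table with POS, MMP2 was at 243 FPKM in HMPOS against 457 in POS cells, 1.88-fold lower in HMPOS (log2 ratio -0.91).

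MMP14, a membrane-anchored collagenase that activates the proenzyme of MMP2, was listed for D17 alone. It was at 72.5 FPKM in extravasated against 22.3 in parental D17 cells, 3.25-fold higher (log2 ratio 1.70). It was the most abundant of the 6 MMPs listed for D17 and made up 68.2% of their summed FPKM in extravasated and 66.8% in parental cells. The second membrane-anchored member, MMP25, which is held by a glycolipid anchor and best known from leukocytes, had rows in both HMPOS tables. It was at 3.41 FPKM in extravasated against 1.56 in parental HMPOS cells, 2.19-fold higher (log2 ratio 1.13), and in the other table at 1.56 FPKM in HMPOS against 7.73 in POS cells, 4.97-fold lower in HMPOS (log2 ratio -2.31).

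MMP19 and MMP28 are secreted MMPs with broad tissue distribution. MMP19 was at 4.19 FPKM in extravasated against 1.05 in parental D17 cells, 3.99-fold higher (log2 ratio 2.00). It was at 6.55 FPKM in HMPOS against 26.8 in POS parental cells, 4.10-fold lower in HMPOS (log2 ratio -2.04). MMP28 was at 3.08 FPKM in extravasated against 1.40 in parental D17 cells, 2.20-fold higher (log2 ratio 1.14). Both genes stayed below 5 FPKM in D17, so these ratios rest on low levels.

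The listed inhibitors were higher in extravasated cells as well, 3 in D17 and TIMP2 alone in HMPOS. TIMP1 and TIMP3 had no row in the HMPOS extravasation comparison. TIMP1, a soluble inhibitor of most secreted MMPs, was at 352 FPKM in extravasated against 184 in parental D17 cells, 1.92-fold higher (log2 ratio 0.94). It was the most abundant of the 9 MMP and TIMP genes listed for D17 in both groups, while members without a row have no known level. Between the parental lines it was at 66.5 FPKM in HMPOS against 145 in POS cells, 2.18-fold lower in HMPOS (log2 ratio -1.12).

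TIMP2 was the only inhibitor with a row in every table. It was at 29.0 FPKM in extravasated against 10.9 in parental D17 cells, 2.66-fold higher (log2 ratio 1.41). In HMPOS it was at 84.1 FPKM in extravasated against 54.6 in parental cells, 1.54-fold higher (log2 ratio 0.62). This was the smallest difference among the 5 genes listed for HMPOS and close to 0.58, the median of every gene in that table. In the table with POS it was at 54.5 FPKM in HMPOS against 141 in POS cells, 2.60-fold lower in HMPOS (log2 ratio -1.38).

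TIMP3, which is bound to the matrix and also inhibits several ADAM and ADAMTS proteases, was at 9.43 FPKM in extravasated against 4.37 in parental D17 cells, 2.16-fold higher (log2 ratio 1.11). Parental HMPOS and POS cells differed much more, at 6.52 and 88.2 FPKM, a 13.5-fold lower level in HMPOS (log2 ratio -3.76). After MMP13 this was the next largest difference of the family between those lines.

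Proteases and inhibitors were next set against each other within a group. Pairs were chosen after their values had been seen. In D17, the level of MMP14 was 2.50 times that of TIMP2 in extravasated and 2.04 times in parental cells, so both partners of MMP2 activation were higher by similar factors. In HMPOS, the level of MMP2 was 6.61 times that of TIMP2 in extravasated and 4.45 times in parental cells. It was 3.23 times that of TIMP2 in POS cells. In D17, MMP2 was far below TIMP2, at a ratio of 0.0396 in extravasated and 0.0340 in parental cells. The ratio of MMP13 to TIMP2 was 0.643 in extravasated and 0.120 in parental HMPOS cells, 0.622 in extravasated and 0.348 in parental D17 cells, and 9.09 in POS cells. Against TIMP1, the most abundant TIMP listed for D17, MMP13 was at a ratio of 0.0513 in extravasated and 0.0207 in parental D17 cells. The ratio of MMP13 to TIMP1 was 0.0984 in parental HMPOS and 8.88 in POS cells. Not every pair shifted toward the protease, since the level of MMP3 relative to TIMP2 was 0.254 in extravasated and 0.411 in parental D17 cells, while in HMPOS it was 5.998 and 2.893. Under the opposite reading of the group names, extravasated and parental ratios would change places. Shifts toward the protease would then be shifts toward the inhibitor, and the reverse for MMP3 in D17.

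Among the listed MMPs, the most abundant was MMP14 in both D17 groups, MMP2 in both HMPOS groups and MMP13 in POS. The level of MMP14 in HMPOS and POS and that of MMP3 in POS are unknown, so whether the leading MMP differs between the lines cannot be told. The 6 MMPs listed for D17 summed to 106 FPKM in extravasated against 33.4 in parental cells. The 4 listed for HMPOS summed to 1118 FPKM in extravasated against 409 in parental cells. The 3 TIMPs listed for D17 summed to 391 FPKM in extravasated against 199 in parental cells. These sums leave out any member without a row, so D17 and HMPOS sums do not cover the same genes.

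To place these genes among the rest, members were counted beside all listed genes with a value above 0 in both groups. In D17, 9 of 9 listed members were higher in extravasated cells, against 54.2% of 4404 genes, and 7 of 9 were higher by more than 2-fold, against 18.2%. The other 2 were TIMP1 and MMP3. In HMPOS, 5 of 5 were higher, against 67.1% of 1186 genes, and 4 of 5 were higher by more than 2-fold, against 20.5%, with TIMP2 below that fold. In HMPOS against POS, 7 of 7 were lower in HMPOS, against 52.3% of 5718 genes, and 6 of 7 were lower by more than 2-fold, against 19.0%, with MMP2 short of it. Since only genes that had passed the authors' test were listed, these counts describe listed members and not the whole family. Under the opposite reading of the group names, the D17 and HMPOS counts and shares would be those of genes lower in extravasated cells.

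The median log2 ratio of listed members was 1.41 in D17, beside 0.39 for all listed genes, 1.19 in HMPOS, beside 0.58, and -2.04 in HMPOS over POS, beside -0.31. With a pseudocount of 1 FPKM, the count above 2-fold in D17 went from 7 to 4, because MMP2, MMP28 and TIMP3 dropped below it. Relative to the median of all listed genes, the count in HMPOS went from 4 to 2, MMP13 and MMP3, and TIMP2 stood 0.04 above that median on the log2 scale. A pseudocount cannot turn a direction, and centring turned none.

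**Figure D2:**
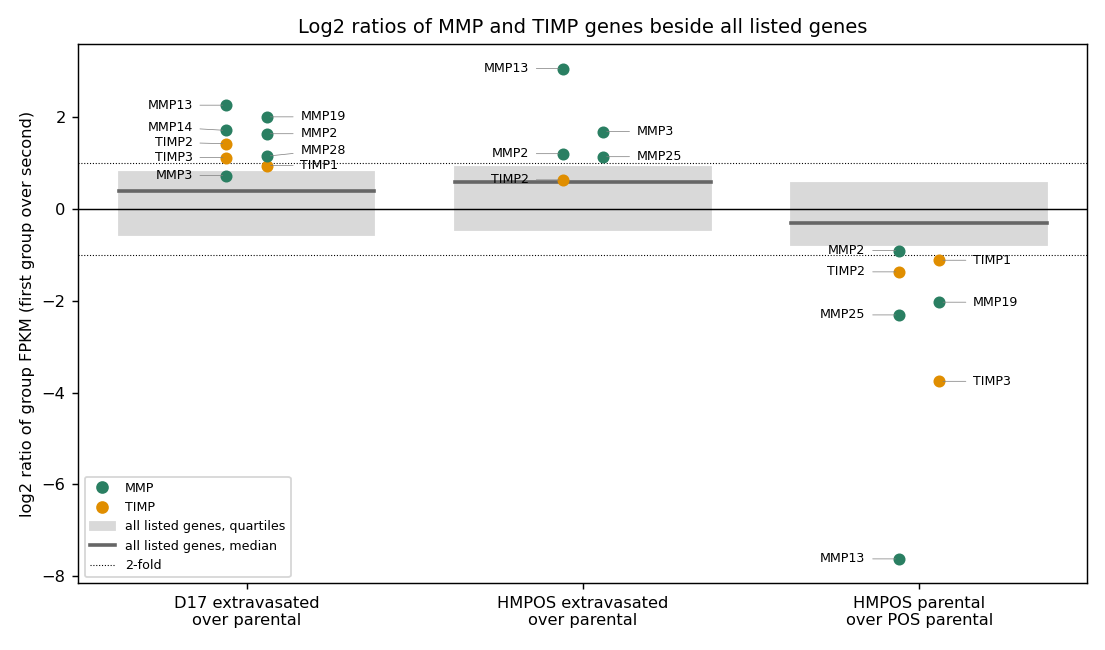
Log2 ratio of group FPKM for each listed MMP (green) and TIMP (orange) gene in the 3 comparisons, with the quartile range (grey box) and the median (grey line) of all listed genes and dotted lines at 2-fold. Members lie above 0 in both comparisons of extravasated with parental cells and below 0 for HMPOS over POS, with MMP13 at 2.25, 3.05 and -7.62.

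D17 and HMPOS share no library, so their comparisons could be set side by side. MMP2, MMP3, MMP13 and TIMP2 had rows for both lines and were higher in extravasated cells of both, beside 381 of the 613 genes (62.2%) listed for both lines. MMP13 and MMP2 were higher by more than 2-fold in both lines, beside 79 of the 613 genes (12.9%). Ordered by the smaller of their log2 ratios, MMP13 was 3rd and MMP2 45th of those 79 genes. With the group names read the other way, these would be genes lower in extravasated cells of both lines.

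The comparison of HMPOS with POS uses the same parental HMPOS libraries as the HMPOS extravasation comparison, so the 2 are not independent and their values are placed side by side without a joint measure. Parental HMPOS values of the 4 members in both tables differed between the tables by at most 0.0014 on the log2 scale. MMP13 was at 1286 FPKM in POS, 6.55 FPKM in parental HMPOS and 54.1 FPKM in extravasated HMPOS cells. MMP2 was at 457, 243 and 556 FPKM in the same order of groups. MMP25 was at 7.73, 1.56 and 3.41 FPKM and TIMP2 at 141, 54.6 and 84.1 FPKM. As the names were read, extravasated HMPOS cells lay between parental HMPOS and POS cells for MMP13, MMP25 and TIMP2, and above both for MMP2. With the names the other way, parental HMPOS cells would hold these places.

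**Figure D3:**
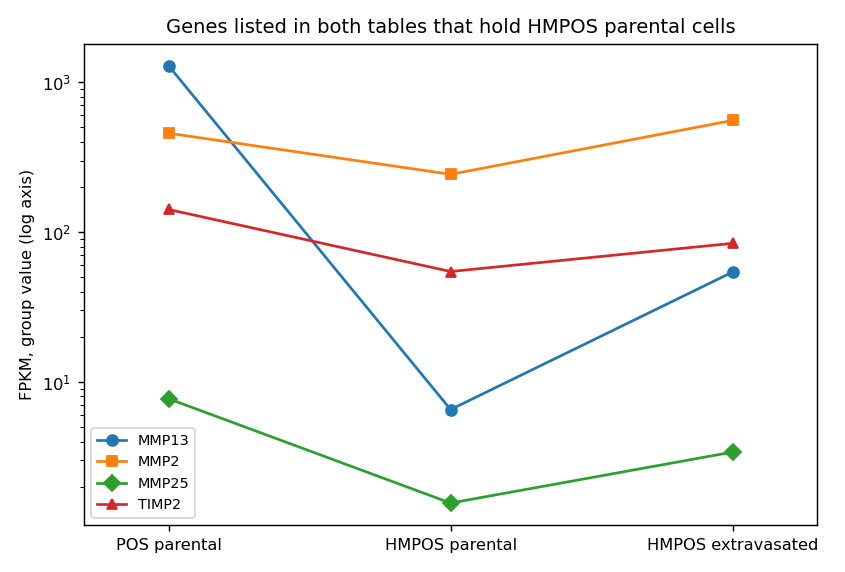
Group FPKM (log axis) in POS parental, HMPOS parental and HMPOS extravasated cells for the 4 genes with rows in both HMPOS tables, 1 line per gene joining its 3 group values. Parental HMPOS cells hold the lowest value of each gene, and extravasated cells reach 54.1 FPKM for MMP13 against 1286 FPKM in POS.

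Genes that act with MMPs and TIMPs were then read from 5 lists. Their counts are set beside the shares of all listed genes and call nothing particular to a list. For D17 and HMPOS, higher and lower would change places in the lists and the cell markers under the opposite reading of the group names. Of 31 genes that activate, anchor or clear MMPs, the D17 table held 14, and 10 of them (71.4%) had the higher level in extravasated cells, beside 54.2% of all listed genes. PLAU, the urokinase that starts the plasmin route of MMP activation, was at 388 FPKM in extravasated against 90.8 in parental cells. A2M, a protease trap of plasma, was at 2.09 and 0.416 FPKM, and TFPI2, a matrix-bound inhibitor of plasmin, at 488 and 192 FPKM. Both an activator and inhibitors of the plasmin route were thus higher. FURIN, the convertase that activates MMP14, was at 10.3 and 5.53 FPKM, and RECK, a membrane inhibitor of MMPs, at 3.43 and 2.19 FPKM, whereas CD44, a hyaluronan receptor that can hold MMPs at the surface, was at 45.8 and 80.4 FPKM. FURIN, RECK and CD44 were picked for their roles, outside the naming rule.

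In HMPOS, 6 genes of this list were listed and all 6 were higher in extravasated cells, beside 67.1% of all listed genes. CLDN1, a tight junction protein, was at 1.58 and 0.778 FPKM, PCSK5, a proprotein convertase, at 2.78 and 1.59 FPKM, and CAV1, the coat protein of caveolae, at 18.0 and 10.5 FPKM. PLAU had no row there. In D17, CLDN1 was lower in extravasated cells, at 26.1 against 39.5 FPKM in parental cells. Between HMPOS and POS, 15 were listed, 6 higher and 9 lower in HMPOS, beside 52.3% of all listed genes lower, and their median log2 ratio of -0.34 was close to the -0.31 of all listed genes. The thrombospondins, which bind MMP2 and affect its clearance, went opposite ways, with THBS2 at 76.2 FPKM in HMPOS against 0.0523 in POS and THBS1 at 5.01 and 53.7 FPKM.

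Of 28 transcription factors known from MMP promoters, 12 were listed for D17, 9 higher and 3 lower in extravasated cells, beside 54.2% of all listed genes higher. The AP-1 subunits split. FOSL2 was at 120 and 48.6 FPKM in extravasated and parental D17 cells, while FOSL1 was at 7.82 and 25.4 FPKM. RELB, a subunit of NF-kB, was at 26.1 and 10.2 FPKM. In HMPOS, 4 were listed and 4 were higher, a small number where 67.1% of all listed genes were higher. JUN was at 87.7 and 39.8 FPKM, FOSL1 at 4.92 and 2.33 FPKM, and ETV5, an ETS factor, at 4.08 and 2.59 FPKM. FOSL1 was therefore higher in extravasated HMPOS and lower in extravasated D17 cells, a difference between the lines that was not tested. In HMPOS against POS, 20 were listed, 7 higher and 13 lower in HMPOS, beside 52.3% of all listed genes lower, with FOS at 2.49 and 11.8 FPKM, FOSL1 at 2.33 and 9.09 FPKM and ETV1 at 0.992 and 8.75 FPKM.

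Of 30 ligands and receptors that are known to induce MMPs, 14 were listed for D17, and 13 of them were higher in extravasated cells, beside 54.2% of all listed genes. IL1R1, the receptor of interleukin 1, was at 7.41 and 1.81 FPKM, TNFRSF1B, a receptor of tumor necrosis factor, at 1.43 and 0.348 FPKM, and TGFBR2 at 28.4 and 10.9 FPKM. In HMPOS, 5 were listed, and 4 were higher, beside 67.1% of all listed genes, while TGFB2 was lower, at 5.51 and 9.11 FPKM. EGFR was at 3.59 and 1.38 FPKM and PDGFRA at 45.5 and 25.0 FPKM. In HMPOS against POS, 12 of the 14 listed were lower in HMPOS, beside 52.3% of all listed genes. The same receptors were among them, with IL1R1 at 4.88 and 62.5 FPKM and EGFR at 1.38 and 8.57 FPKM, and the ligand TGFB2 was at 9.10 and 46.2 FPKM.

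Of 32 matrix proteins that MMPs can cut, 15 were listed for D17, 13 higher and 2 lower in extravasated cells, beside 54.2% of all listed genes higher. SPP1, osteopontin, was at 25.2 and 3.71 FPKM, DCN, the proteoglycan decorin, at 544 and 157 FPKM, and TNC, tenascin C, at 1.01 and 0.249 FPKM. In HMPOS, 12 were listed, 10 higher and 2 lower, beside 67.1% higher. COL3A1, the chain of type III collagen, was at 822 and 56.7 FPKM, whereas in D17 it was lower in extravasated cells, at 4.50 and 13.0 FPKM. TNC was at 1.15 and 0.294 FPKM, and IBSP, bone sialoprotein, lower at 0.427 and 2.05 FPKM. In HMPOS against POS, 23 were listed, 4 higher and 19 lower in HMPOS, beside 52.3% lower. COL6A3 was at 0.272 and 49.7 FPKM, COL4A1 at 0.0771 and 3.45 FPKM and ACAN, aggrecan, at 3.00 and 25.9 FPKM. VCAN, the proteoglycan versican, was at 17.01 and 23.15 FPKM in D17 and at 3.998 and 8.478 FPKM in HMPOS, and so was lower in the groups named meta in both lines. The article reports VCAN as upregulated in extravasated cells of both lines, which is part of the doubt about the group names. The median log2 ratio of these matrix genes was 0.64 in D17, 0.76 in HMPOS and -1.32 in HMPOS over POS, beside 0.39, 0.58 and -0.31 for all listed genes.

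The last list held 19 other metalloproteinases and TIMP targets. For D17, 9 were listed, 8 higher and 1 lower in extravasated cells, beside 54.2% of all listed genes higher. ADAMTS2, which trims procollagen, was at 27.0 and 6.70 FPKM, MME, the membrane peptidase neprilysin, at 30.5 and 8.34 FPKM, and ADAMTS9, a proteoglycanase, at 5.24 and 1.80 FPKM. For HMPOS, 6 were listed and 6 were higher, beside 67.1%, with ADAMTS2 at 39.1 and 16.3 FPKM, MME at 78.5 and 43.9 FPKM and ADAM12 at 7.27 and 4.29 FPKM. Against POS, 11 were listed, 3 higher and 8 lower in HMPOS, beside 52.3% lower, with MME at 43.9 and 135 FPKM, ADAMTS12 at 0.301 and 1.62 FPKM and ADAM12 higher, at 4.29 and 1.58 FPKM.

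**Figure D4:**
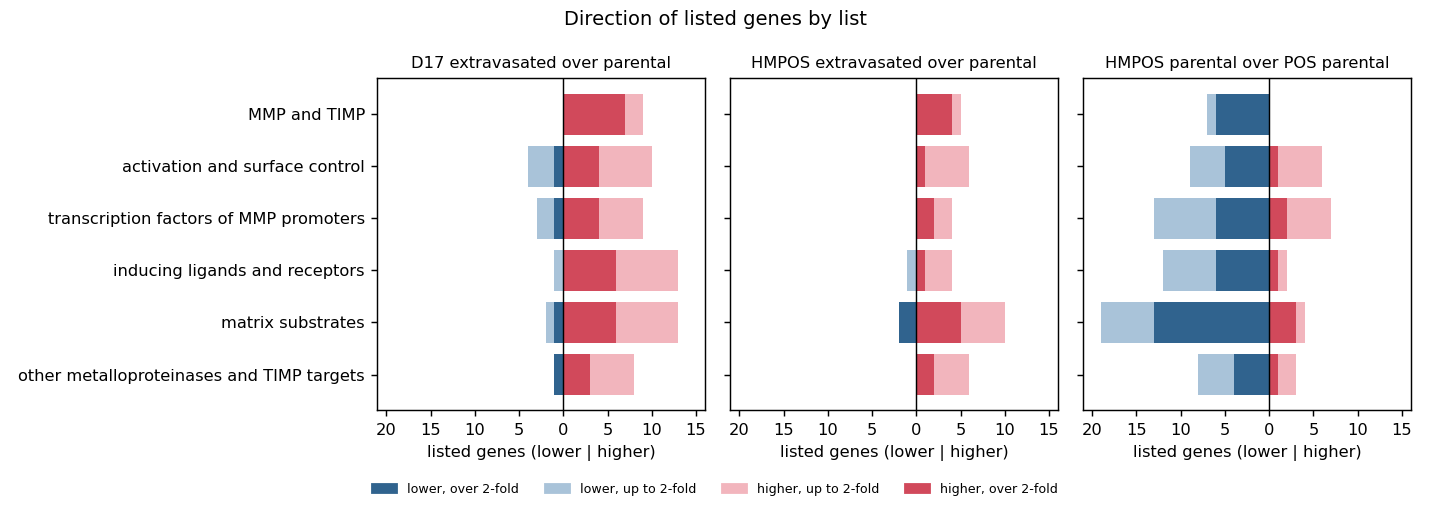
Number of listed genes that were higher (right, red) or lower (left, blue) in the first group of each comparison, for the MMP and TIMP genes and 5 lists of genes that act with them, with darker shades for differences above 2-fold. The MMP and TIMP bars point one way in every panel (9, 5 and 7 genes), and the matrix substrates hold 13 genes lower by more than 2-fold in HMPOS over POS.

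Markers of osteoblast-lineage cells were present in all groups. Of 11 such markers, 6 were listed for D17, 6 for HMPOS and 7 for HMPOS against POS. SPARC, osteonectin, was at 433 and 187 FPKM in extravasated and parental D17 cells, at 2897 and 1777 FPKM in HMPOS, and at 4439 FPKM in POS cells. BGLAP, osteocalcin, was at 46.3 and 27.3 FPKM in extravasated and parental HMPOS cells and at 676 FPKM in POS cells. The listed markers summed to 2238 and 925 FPKM in D17, 3125 and 1923 FPKM in HMPOS, and 1996 and 5480 FPKM in HMPOS and POS. SPARC alone makes up most of the HMPOS and POS sums. By count, 6 of 6 markers were higher in extravasated D17 cells, beside 54.2% of all listed genes, with a median log2 ratio of 1.34 beside 0.39. In HMPOS 5 of 6 were higher, beside 67.1%, and the median log2 ratio of 0.73 was near the 0.58 of all listed genes. Between HMPOS and POS, 6 of 7 were lower in HMPOS, beside 52.3%, with a median of -1.49 beside -0.31. The exceptions were IBSP in HMPOS and SP7, at 54.5 FPKM in HMPOS against 41.7 in POS. SPP1, COL1A1, COL1A2, SPARC and IBSP also belong to the list of matrix proteins above, so the markers are not a separate set. RUNX2, SP7, ALPL, IBSP and BGLAP had no row for D17. More cells with osteoblast features and more RNA per cell cannot be told apart in bulk libraries, and the part of either in the MMP differences was not tested.

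Few markers of other cell types were listed, and those without a row have no known level. Of 6 leukocyte markers none had a row in any table, and of 6 endothelial markers 1 did, KDR, at 0.146 FPKM in HMPOS against 1.73 in POS. Of 5 epithelial markers, CDH1 and EPCAM were listed for D17, summing to 3.19 FPKM in extravasated against 0.510 in parental cells. CDH1 alone was listed for HMPOS, at 3.05 and 1.49 FPKM, and for HMPOS against POS, at 1.49 and 4.30 FPKM. Of 5 osteoclast markers, CTSK, the collagen-cutting cathepsin K, alone was listed, at 440 and 85.6 FPKM in extravasated and parental D17 cells, 48.3 and 13.9 FPKM in HMPOS, and 13.9 and 529 FPKM in HMPOS and POS. ACP5, CALCR, OCSTAMP and DCSTAMP had no row. No listed marker was at 0, and the part of such cells in the MMP differences was not tested.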

How the data were processed

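RNA was sequenced from 15 libraries of canine osteosarcoma cell lines. The submitters' processing notes name Trimmomatic 0.38, TopHat2, Cufflinks, Cuffdiff and the build CanFam3.1, whereas the article's methods name STAR, voom and limma. The columns are those of Cuffdiff. The sample records and the article also name different RNA and library kits. The authors deposited 1 FPKM value per group in each of 3 tables, and all 4412, 1189 and 5746 rows are marked significant. Depth is unknown. Columns with the authors' own log2 ratios, test statistics, p-values and q-values were not used. Columns of individual libraries were absent, so 0 of them stayed unused.

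Log2 ratios were computed from the group values with Python 3.11.15, numpy 2.4.6 and pandas 2.3.3, after the calculation had been tested on simulated data, and were drawn with matplotlib 3.10.9. Rows with a value of 0 in a group (8, 3 and 28) were given no ratio. No test was made. The members and lists were chosen with earlier results of these data known. Named genes were all listed members and up to 3 genes of each list and table, from those with the largest log2 ratio in either direction and at least 1 FPKM in a group. A few more were named afterwards for their role, position or opposite direction. A planned search for genes with similar ratios across the 3 tables is not reported, because 2 of the tables share libraries. RefSeq symbols matched all 10 members. The alternatives were other folds, pseudocounts of 1 and 0.1, a filter at 1 FPKM, centring, 1 row per symbol and the second HMPOS parental value.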

Additional observations from a re-analysis of the deposited data

How the results depend on the processing

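Of the 109 recalculated log2 ratios of single members, 21 were centred and could have changed direction, and 0 did. The 4 with the second HMPOS parental value could not, since that value differed from the first by at most 0.0014 on the log2 scale. Pseudocounts, the filter and 1 row per symbol cannot turn a sign. Of 21 recalculated counts of members above the fold in the direction members took, 19 stayed within 1.5 times of the reported count and 2 moved. The filter and 1 row per symbol could change none of these counts, and the lower folds could only raise them. The reading of the group names was not among these alternatives, and the opposite one would turn every D17 and HMPOS direction. With a pseudocount of 1 FPKM, 4 members of D17 were higher by more than 2-fold in place of 7, and the median log2 ratio of members became 0.96 in D17 and -1.77 in HMPOS over POS. With a pseudocount of 0.1 FPKM these medians were 1.40 and -2.02. A pseudocount shrinks ratios of low values by its construction. After centring on the median of all listed genes, 2 members of HMPOS were higher by more than 2-fold in place of 4, and the medians were 1.03 in D17, 0.61 in HMPOS and -1.73 in HMPOS over POS. That median is no neutral reference, since a gene had to pass the authors' test to be listed.

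No paired analysis was possible because each table holds 1 value per group and none per library. Fits that leave out a replicate and other tools could not be run for the same reason. The unknown depth weighs most on MMP2, MMP19 and MMP28 in D17 and on MMP25 in HMPOS, whose lower group value was below 2 FPKM.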

Other observations

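Genes near the members on the chromosome were read as well, a choice made after the values had been seen. Within 1 Mb of MMP2, the metallothionein genes MT1X and MT2A, whose products bind zinc and copper, were listed. MT2A was at 1109 FPKM in extravasated against 127 in parental D17 cells, and at 38.3 FPKM in HMPOS against 231 in POS cells. MT1X was at 23.6 and 2.26 FPKM in extravasated and parental D17 cells. In HMPOS the values were 1.33 and 0.308 FPKM, and POS cells held 4.06 FPKM.

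Within 1 Mb of MMP13, 5 genes were listed for D17, 4 higher and 1 lower, and 4 for HMPOS against POS, all lower in HMPOS, beside 54.2% higher and 52.3% lower of all listed genes. These numbers of neighbours are small. The higher genes in D17 were PDGFD, DYNC2H1, MMP3 and BIRC3, and the lower one was C11orf70. BIRC3, an inhibitor of apoptosis, was at 5.92 FPKM in extravasated against 3.64 in parental D17 cells and at 0.648 FPKM in HMPOS against 2.62 in POS cells. DYNC2H1, a dynein of cilia, was at 3.66 and 2.63 FPKM in D17 and at 3.56 and 5.44 FPKM in HMPOS and POS. In the HMPOS extravasation table, MMP3 was the only listed gene within 1 Mb of MMP13. Within 1 Mb of TIMP2, all 5 genes listed for HMPOS were higher in extravasated cells, beside 67.1% of all listed genes, among them the lysosomal enzymes SGSH and GAA, while of the 12 listed for D17 there were 6 higher and 6 lower. Within 1 Mb of MMP19, 23 of 24 genes listed for HMPOS against POS were lower in HMPOS, beside 52.3% of all listed genes. MMP19 was not alone in this, since 10 of 10 were lower around TIMP2, 7 of 7 around TIMP3 and 6 of 7 around MMP2. Neighbours were mixed around MMP25, with 12 of 21 higher, and around TIMP1, with 5 of 8 higher.

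SYN2, which contains TIMP4 in the RefSeq annotation, was at 2.06 FPKM in extravasated against 1.23 in parental D17 cells, and TIMP4 had no row.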
